A study of Mus musculus with 8 samples.

Results

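The ATG8 family and the ATG4 proteases were followed as 9 genes in an RNA-seq series of mouse embryonic fibroblasts (MEFs), which are connective tissue cells grown from embryos. They were chosen by gene symbol, as 5 ATG8 genes (Map1lc3a, Map1lc3b, Gabarap, Gabarapl1 and Gabarapl2) and 4 ATG4 genes (Atg4a, Atg4b, Atg4c and Atg4d). All 9 were present among the 49492 gene rows, and all 9 passed the filter on low values, which left 16232 genes for testing. The series asked which genes depend on arginines of Pontin that are methylated under glucose starvation. Pontin is the product of Ruvbl1 and works as an ATPase in complexes that remodel chromatin. There were 4 groups with 2 samples each, formed by the Pontin form (WT or RA) and the medium (normal or glucose starved). Both lines came from Pontin f/f MEFs that stably expressed a Flag-tagged Pontin from a lentivirus under hygromycin selection and then received Cre to delete the endogenous gene, so every group shared the deletion and the added copy. The WT line received the wild-type form, and the RA line received a form with arginines replaced by alanine. Each Pontin form was 1 stable line, so an effect of the line and an effect of the mutation cannot be told apart. Starved cells were kept in medium without glucose with dialyzed serum, and the length of starvation for these libraries is not given in the sources used here. Nothing in the labels says that the 2 samples of a group were separate cultures, so p-values measure the spread between these samples, which may be technical.

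ATG8 proteins are small ubiquitin-like proteins that are attached to the lipid phosphatidylethanolamine on the growing autophagosome membrane. They fall into the LC3 subfamily (Map1lc3a and Map1lc3b) and the GABARAP subfamily (Gabarap, Gabarapl1 and Gabarapl2), and they recruit cargo receptors and help the autophagosome to close and to fuse with the lysosome. ATG4 proteins are cysteine proteases that cut the newly made ATG8 protein behind a glycine near its end, which exposes that glycine for lipid attachment, and that later release ATG8 from the membrane. RNA levels do not measure the lipid-bound protein or autophagic flux.

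The site that an ATG4 protease cuts is shown first, since it joins both families. The lines below give the end of the coding sequence of each ATG8 gene, 5′ to 3′ on the plus strand of GRCm38 (GENCODE M21), with the codon of the exposed glycine in capitals. Each stretch lies within 1 exon.
Map1lc3a, chr2:155277605-155277637: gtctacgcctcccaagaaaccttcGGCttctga
Map1lc3b, chr8:121596726-121596770: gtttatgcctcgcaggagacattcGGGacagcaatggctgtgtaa
Gabarap, chr11:69994492-69994524: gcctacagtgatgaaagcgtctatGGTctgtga
Gabarapl1, chr6:129541135-129541167: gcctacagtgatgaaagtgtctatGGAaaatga
Gabarapl2, chr8:111952373-111952405: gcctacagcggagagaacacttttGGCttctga

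The glycine was codon 120 in Map1lc3a and Map1lc3b and codon 116 in the 3 GABARAP genes. A single codon stood between it and the stop codon in Map1lc3a, Gabarap, Gabarapl1 and Gabarapl2, and 5 codons stood there in Map1lc3b. Over the whole coding sequence, Map1lc3a and Map1lc3b were identical at 74.1% of aligned columns and Gabarap and Gabarapl1 at 74.9%. Gabarapl2 was identical to Gabarap at 62.5% and to Gabarapl1 at 63.8%, and each LC3 gene was identical to each GABARAP gene at 50.4% to 54.3%.

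The protease side is shown by the codons around the cysteine of the active site, which is in capitals. A script located it as the cysteine codon that follows a tryptophan and a glycine codon and precedes, by 1 codon, a leucine codon, a pattern found once in each gene. These exonic stretches are also on the plus strand of GRCm38.
Atg4a, chrX:140990178-140990210: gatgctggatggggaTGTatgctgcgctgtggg
Atg4b, chr1:93773790-93773822: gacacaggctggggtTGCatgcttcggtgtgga
Atg4c, chr4:99218120-99218152: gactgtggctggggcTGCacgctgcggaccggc
Atg4d, chr9:21267002-21267034: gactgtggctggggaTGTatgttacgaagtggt

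The cysteine was codon 77 in Atg4a, 74 in Atg4b, 111 in Atg4c and 144 in Atg4d. The coding sequences of Atg4a and Atg4b were identical at 60.7% of aligned columns and those of Atg4c and Atg4d at 51.7%, and the other ATG4 pairs lay between 45.1% and 47.6%. No member transcript aligned to another over at least 300 bases at 90% identity or more.

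Depth was 43205841 to 56363034 reads in a sample, and the members had from 248 reads (the lowest count of Atg4c) to 12941 reads (the highest count of Gabarap) in a sample. Values below are CPM (read counts scaled to a common library total, here a total that the authors adjusted per sample), and a value of 3 reads lay between 0.0548 and 0.069. The fibroblast label was met by 10 of 10 fibroblast markers with a mean value above 1, but their summed value moved with the medium. It lay between 10590 and 10670 in WT normal, between 5671 and 5776 in WT starved, between 10420 and 10720 in RA normal and between 7322 and 7345 in RA starved, and its part in the results below was not tested. Of the markers of other cells, 7 leukocyte markers summed to 13.6 to 14.3 in WT normal, 25.5 to 25.9 in WT starved, 16.8 to 17.9 in RA normal and 21.6 to 22.0 in RA starved. Of these 7, 2 had a mean value above 1, Csf1r (10.4 to 20.1 over the samples) and Cd68 (1.9 to 4.5). Ptprc was at most 0.0392 and Cd3e was 0 in all samples. The 4 endothelial markers summed to 2.52 to 3.39 in WT normal, 8.92 to 9.43 in WT starved, 2.02 to 3.43 in RA normal and 5.99 to 6.34 in RA starved. The 4 neuronal markers summed to 39.6 to 39.7, 22.1 to 23.7, 28.9 to 30.9 and 25.7 to 27.9 in the same order. Only Map2 among them had a mean value above 1, with 22.0 to 39.2 over the samples. The 5 epithelial markers summed to at most 3.21 and the 3 muscle markers to at most 0.217, and the part of these sums in the results was not tested. Ruvbl1 had values of 28.4 and 27.6 in WT normal, 27.9 and 28.4 in WT starved, 36.8 and 32.0 in RA normal, and 45.0 and 42.9 in RA starved. Since added and endogenous Pontin were not counted apart, these values do not test the labels. Fewer cells of a type and less RNA per cell cannot be told apart in such bulk samples.

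Glucose starvation raised the messages of all 5 ATG8 genes in WT cells, with the largest rise in Map1lc3b, and raised 4 of them in RA cells, where Gabarapl2 fell. In WT cells 6 of 9 members were called by limma at an adjusted p under 0.05, all of them higher, against 78.6% of all genes tested, and 39.3% called higher. In RA cells 8 of 9 members were called, against 68.7% of all genes tested. Of these, 7 were higher and Gabarapl2 was lower, where 35% of all genes were called higher and 33.7% lower. Starved and normal samples did not overlap for 8 of 9 members in WT cells and for 9 of 9 in RA cells, beside 88.7% and 83.3% of all genes tested. Changes with starvation were thus the rule in these cells, and a call alone does not set a member apart. The median difference of the 9 members was 0.31 on the log2 scale in WT cells and 0.30 in RA cells. Over all genes tested it was 0.00 and 0.01. These near-equal values pool families that differed. For the 5 ATG8 genes alone, WT cells had a median of 0.84, against 0.32 for RA cells. The median of the 4 ATG4 genes was 0.13 for WT cells and 0.26 for RA cells, but these genes did not move alike. Atg4d rose more in WT cells (0.50, and 0.30 in RA), and Atg4b differed by 0.11 in both lines. Atg4a (0.15 in WT and 0.21 in RA) and Atg4c (-0.17 and 0.35) had the higher value in RA cells.

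**Figure D1:**
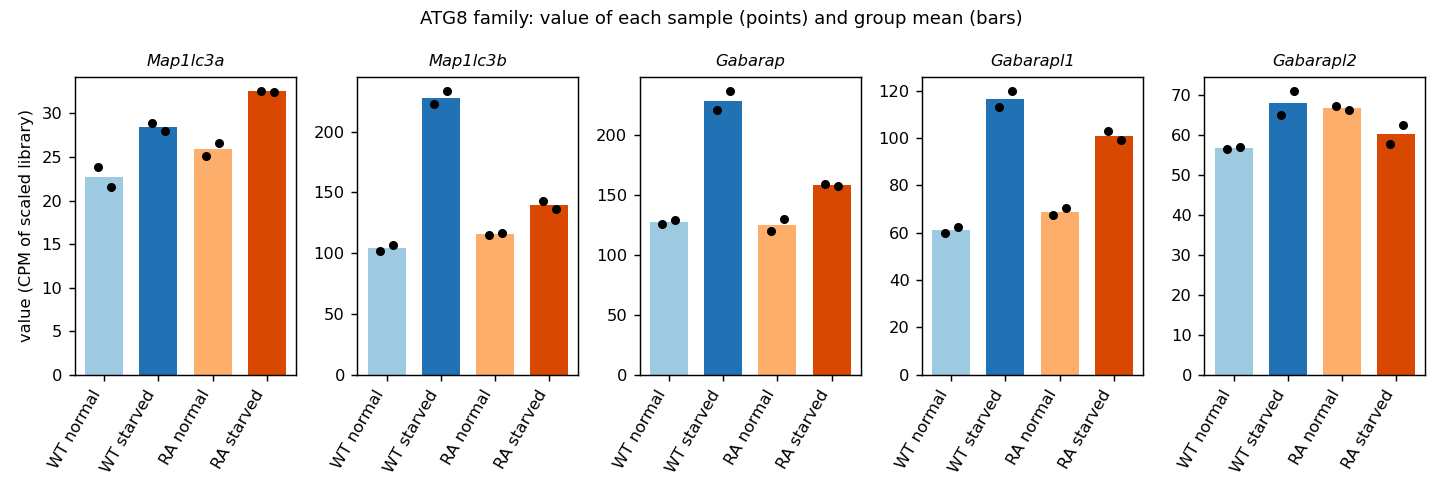
Values of the 5 ATG8 genes, in CPM of the scaled library, for each of the 8 samples (points) with the mean of each group of 2 (bars, each axis from 0). Map1lc3b and Gabarap stand highest in the WT starved samples, at 223 to 236, while the RA starved samples lie between 136 and 159, and Gabarapl2 is lower in RA starved than in RA normal samples.

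Map1lc3b encodes LC3B, the protein whose lipid-bound form is the usual marker of autophagosomes. Its values were 102 and 107 in WT normal, 223 and 233 in WT starved, 115 and 117 in RA normal, and 143 and 136 in RA starved. No pair of groups overlapped, and the order from the highest was WT starved, RA starved, RA normal and WT normal. Starvation raised it by 1.12 ± 0.04 (log2, SE) in WT cells (limma adjusted p = 1.17e-13) and by 0.27 ± 0.04 in RA cells (adjusted p = 2.08e-05), which are folds of the mean values of 2.18 and 1.21. Map1lc3b and the genes Gabarap and Gabarapl1 are on a list that the study chose on these samples, so their direction is not independent evidence.

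Gabarap, the founding member of its subfamily, had values of 126 and 129 in WT normal, 221 and 236 in WT starved, 120 and 130 in RA normal, and 159 and 157 in RA starved. The normal samples of both lines overlapped, and the WT starved samples stood above all others. The rise was 0.84 ± 0.04 in WT cells (limma adjusted p = 1.77e-11) and 0.34 ± 0.04 in RA cells (adjusted p = 4.33e-06), or 1.80-fold (mean values) and 1.26-fold.

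Gabarapl1, a close relative of Gabarap, rose in both lines. Its values were 59.7 and 62.3 in WT normal, 113 and 120 in WT starved, 67.4 and 70.5 in RA normal, and 103 and 99.0 in RA starved. All groups were separate, in the order WT starved, RA starved, RA normal and WT normal. It rose by 0.92 ± 0.05 in WT cells (limma adjusted p = 6.45e-12) and by 0.54 ± 0.05 in RA cells (adjusted p = 1.43e-08), which was the largest rise of any member in RA cells.

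Gabarapl2, also known as GATE-16, moved in opposite directions. Its values were 56.5 and 57.0 in WT normal, 64.9 and 70.8 in WT starved, 67.1 and 66.1 in RA normal, and 57.7 and 62.4 in RA starved. The RA normal samples lay inside the range of the WT starved samples, and the RA starved samples lay above both WT normal samples. It rose by 0.25 ± 0.05 in WT cells (limma adjusted p = 2.77e-04) and fell by 0.15 ± 0.05 in RA cells (adjusted p = 0.0177). In RA cells the call was also lost with no filter on low values (adjusted p = 0.0594) and with eBayes without the trend (adjusted p = 0.0716). The fall was not called without RA normal replicate 1 (fell by 0.14, adjusted p = 0.0615) or without RA starved replicate 1 (fell by 0.09, adjusted p = 0.214). GENCODE M21 holds 6 processed pseudogenes that match Gabarapl2 at 90% identity or more over 300 bases, of which 5 had rows here with a summed mean value of 6.52. With their values added, the sum was 0.27 higher after starvation in WT cells and fell by 0.14 in RA cells.

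Map1lc3a, the other LC3 gene, moved alike in both lines. Its values were 23.8 and 21.6 in WT normal, 28.9 and 28.0 in WT starved, 25.1 and 26.6 in RA normal, and 32.5 and 32.5 in RA starved. Starved samples were above the normal samples of their own line, and the RA samples were above the WT samples in the same medium. The rise was 0.31 ± 0.06 in WT cells (limma adjusted p = 2.79e-04) and 0.32 ± 0.06 in RA cells (adjusted p = 3.03e-04), or 1.25-fold (mean values) and 1.26-fold.

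**Figure D2:**
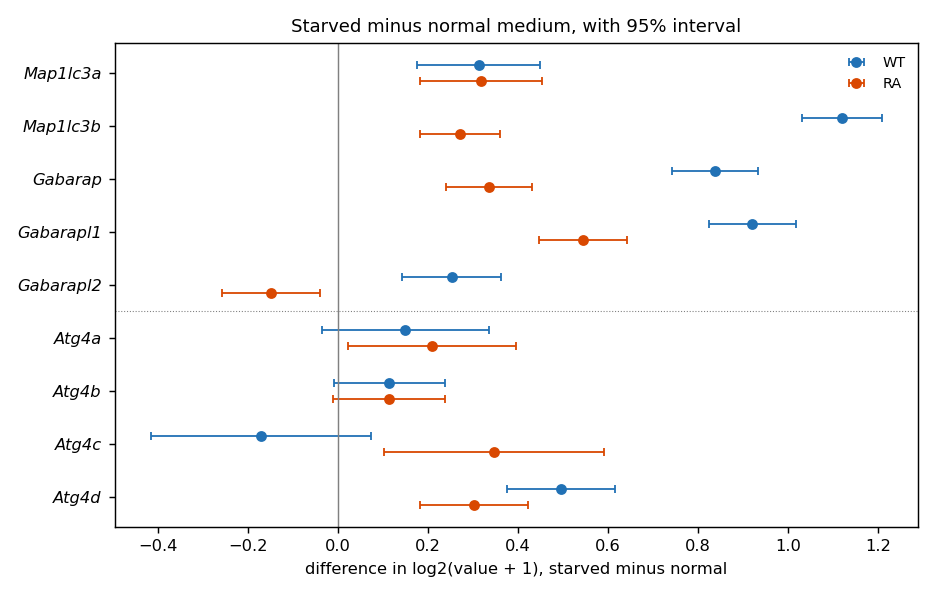
Difference in log2(value + 1) between starved and normal medium for each of the 9 members in WT (blue) and RA (orange) cells, with 95% intervals from limma. Map1lc3b lies at 1.12 in WT cells and at 0.27 in RA cells, and the intervals of Map1lc3a, Atg4a and Atg4b overlap nearly in full.

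Among the ATG4 proteases, Atg4d, which is cut by caspases, was the one called in both lines. Its values were 34.3 and 38.4 in WT normal, 50.9 and 52.3 in WT starved, 37.4 and 36.6 in RA normal, and 46.3 and 45.4 in RA starved. The normal samples overlapped, and the WT starved samples lay above the RA starved samples. Atg4d rose by 0.50 ± 0.06 in WT cells (limma adjusted p = 4.13e-07) and by 0.30 ± 0.06 in RA cells (adjusted p = 1.55e-04). Atg4d shares 1405 exon bases with Kri1, a ribosome biogenesis gene on the opposite strand, and the kit does not mark strand, so reads from both genes cannot be told apart there. Kri1 had mean values of 43.2, 65.0, 42.6 and 53.0 in WT normal, WT starved, RA normal and RA starved, and the ratio of Atg4d to Kri1 lay between 0.786 and 0.875 in all samples. With both rows added, the differences were 0.55 in WT and 0.31 in RA.

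Atg4b, which cuts all ATG8 proteins and is the most active of the 4 proteases, had values of 33.7 and 35.9 in WT normal, 38.0 and 37.5 in WT starved, 40.0 and 36.3 in RA normal, and 40.7 and 42.0 in RA starved. The difference between the media was 0.11 ± 0.06 in both lines (limma adjusted p = 0.0841 in WT and 0.0943 in RA), with 95% intervals from -0.01 to 0.24 in each line. Starved samples were above normal samples of their line. Leaving out RA normal replicate 1 put the difference in RA cells past the threshold (0.18, adjusted p = 0.0212).

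Atg4a, which prefers the GABARAP proteins, had values of 9.39 and 9.92 in WT normal, 10.4 and 11.2 in WT starved, 10.3 and 9.88 in RA normal, and 12.0 and 11.6 in RA starved. It differed by 0.15 ± 0.09 in WT cells (limma adjusted p = 0.128, 95% interval -0.04 to 0.34) and by 0.21 ± 0.09 in RA cells (adjusted p = 0.0437). The call in RA cells was lost without any 1 of the 4 RA samples (adjusted p from 0.0711 to 0.164) and without WT normal replicate 2 (adjusted p = 0.0504). It was also lost with no filter (adjusted p = 0.0537), quantile normalization (adjusted p = 0.0527), a fit on only the groups compared (adjusted p = 0.0518) and DESeq2 (adjusted p = 0.0904). In WT cells the difference became a call with quantile normalization (0.28, adjusted p = 0.00792) and without the trend (adjusted p = 0.0429). A copy of the gene, Atg4a-ps, matches it at 99.29% over 2115 bases and had a mean value of 0.939, so its row and that of Atg4a may share reads.

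Atg4c, which has little activity as a full-length protein, had the lowest values of the members. They were 6.31 and 7.14 in WT normal, 5.20 and 6.58 in WT starved, 7.26 and 6.45 in RA normal, and 8.91 and 9.04 in RA starved. Only the RA starved samples stood apart, above all 6 others. It rose by 0.35 ± 0.12 in RA cells (limma adjusted p = 0.0137) and differed by -0.17 ± 0.12 in WT cells (adjusted p = 0.187, 95% interval -0.41 to 0.07). The call in RA was lost without RA normal replicate 2 (0.27, adjusted p = 0.10) and without RA starved replicate 2 (0.34, adjusted p = 0.0598), and with no filter (adjusted p = 0.0626). Without WT starved replicate 2 the difference in WT became a call (fell by 0.32, adjusted p = 0.0392).

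**Figure D3:**
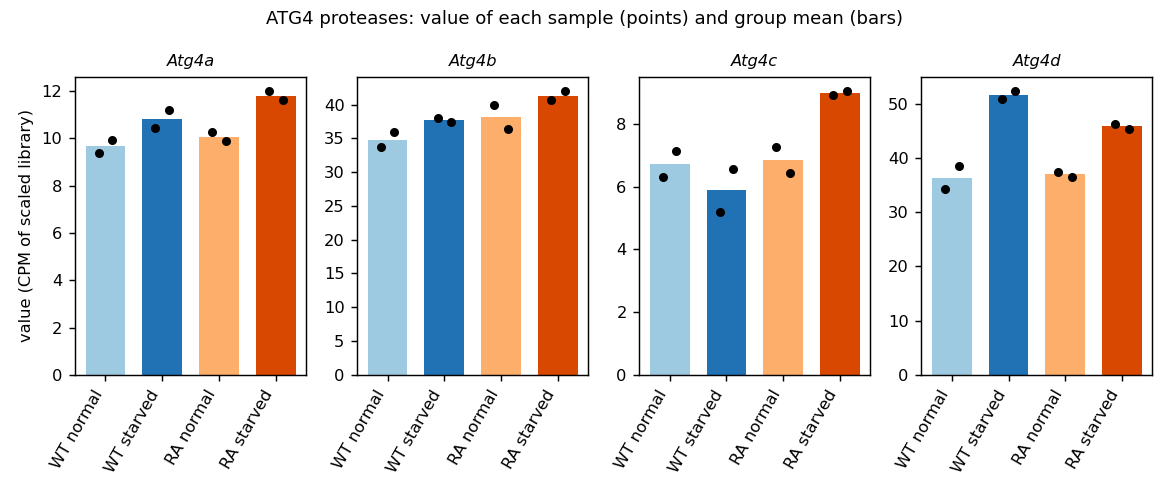
Values of the 4 ATG4 genes, in CPM of the scaled library, for each of the 8 samples (points) with the mean of each group of 2 (bars, each axis from 0). Atg4d is higher in both starved groups, Atg4c is highest in RA starved samples at 8.91 and 9.04, and Atg4b stays between 33.7 and 42.0 throughout.

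The response to starvation was then compared between the lines by the interaction, the log2 response in RA less the log2 response in WT. By limma 5 of 9 members were called, against 50.6% of all genes tested. Of these, 4 were below 0 and 1 was above it, where 26.1% of all genes were called below 0 and 24.5% above it. The response was smaller in RA cells for Map1lc3b, Gabarap and Gabarapl1, took the opposite sign for Gabarapl2, and lay above the WT response for Atg4c. The interaction was -0.85 ± 0.06 (log2, SE) for Map1lc3b (limma adjusted p = 4.56e-09), -0.50 ± 0.06 for Gabarap (adjusted p = 5.96e-06), -0.40 ± 0.07 for Gabarapl2 (adjusted p = 2.37e-04) and -0.38 ± 0.06 for Gabarapl1 (adjusted p = 1.41e-04).

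The interaction of Atg4c was 0.52 ± 0.16 (limma adjusted p = 0.0146). It was lost without WT normal replicate 2 (0.44, adjusted p = 0.0625), WT starved replicate 1 (0.37, adjusted p = 0.0809) or RA normal replicate 2 (0.44, adjusted p = 0.0534), with no filter (adjusted p = 0.0708) and with quantile normalization (0.34, adjusted p = 0.0893). Atg4d missed the threshold at -0.19 ± 0.08 (adjusted p = 0.0536) and became a call without WT normal replicate 2 (-0.27, adjusted p = 0.0125). For Map1lc3a the interaction was 0.01 with a 95% interval from -0.19 to 0.20, for Atg4b 0.00 with an interval from -0.17 to 0.17, and for Atg4a 0.06 with an interval from -0.20 to 0.32. In deposited values, Map1lc3b gained 124 in WT and 24.1 in RA, and Gabarap gained 101 in WT and 33.0 in RA.

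In normal medium the lines differed little. By limma 3 of 9 members were called, all higher in RA, against 9.63% of all genes tested, and 6.68% called higher. They were Gabarapl2 (0.23 ± 0.05, adjusted p = 0.00996), Gabarapl1 (0.17 ± 0.05, adjusted p = 0.0244) and Map1lc3b (0.15 ± 0.04, adjusted p = 0.0350). These calls depended on single samples: 0 of 9 members were called by limma without WT normal replicate 1 or without WT normal replicate 2 (4 of 9 at an unadjusted p under 0.05 in each), and 1 of 9 without RA normal replicate 2. EdgeR and DESeq2 called 2 of 9 on all samples. Scaling to total reads also left 1 of 9, and the share of higher calls over all genes was 69.4% as deposited, 52.6% after quantile normalization and 40.5% with total reads. Gabarap differed by -0.02 (95% interval -0.12 to 0.07), Map1lc3a by 0.18 (0.05 to 0.32, adjusted p = 0.0861) and Atg4b by 0.13 (0.00 to 0.25, adjusted p = 0.184). The differences of Atg4a, Atg4c and Atg4d were 0.06, 0.03 and 0.03, and their samples overlapped between the lines. Samples of the lines did not overlap for 5 of 9 members, beside 53.2% of all genes tested.

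Under starvation the lines differed in most members. By limma 7 of 9 were called, 5 lower and 2 higher in RA, against 62.9% of all genes tested. Of all genes, 32.1% were called lower and 30.8% higher. All 5 ATG8 genes were called, Gabarapl2 and Map1lc3a with the exceptions given below. Map1lc3b fell short of WT by the largest amount, with a difference of -0.70 ± 0.04 (limma adjusted p = 2.47e-10), which put its RA mean at 61.3% of the WT mean. Gabarap followed with -0.53 ± 0.04 (adjusted p = 2.57e-08), or 69.2% of the WT mean. Gabarapl1 was lower by less, with -0.20 ± 0.05 (adjusted p = 0.00108).

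Gabarapl2 differed by -0.17 ± 0.05 (limma adjusted p = 0.00800) and Atg4d by -0.17 ± 0.06 (adjusted p = 0.0164). The call of Gabarapl2 was lost without WT starved replicate 2 (-0.11, adjusted p = 0.122) or RA starved replicate 1 (-0.12, adjusted p = 0.127). That of Atg4d was lost without WT starved replicate 2 (adjusted p = 0.0876) or RA starved replicate 2 (adjusted p = 0.0909), and with eBayes without the trend (adjusted p = 0.0539). In the other direction, Map1lc3a was higher in RA by 0.19 ± 0.06 (adjusted p = 0.0172) and Atg4c by 0.54 ± 0.12 (adjusted p = 6.21e-04). For Map1lc3a the call was lost with quantile normalization (0.13, adjusted p = 0.0903) and without WT starved replicate 2 (adjusted p = 0.0912), RA starved replicate 1 (adjusted p = 0.0702) or RA starved replicate 2 (adjusted p = 0.0691). Atg4a (0.11, 95% interval -0.07 to 0.30) and Atg4b (0.13, 95% interval 0.00 to 0.25) were not called. Atg4b passed the threshold with total reads (adjusted p = 0.0407), a fit on only the groups compared (adjusted p = 0.0384) and edgeR (adjusted p = 0.0336), and without RA normal replicate 1 (adjusted p = 0.0430) or 2 (adjusted p = 0.0421). The starved samples of the lines did not overlap for any of the 9 members, which was so for 81.5% of all genes tested. Without WT starved replicate 2 the count of members called fell to 4 of 9.

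**Figure D4:**
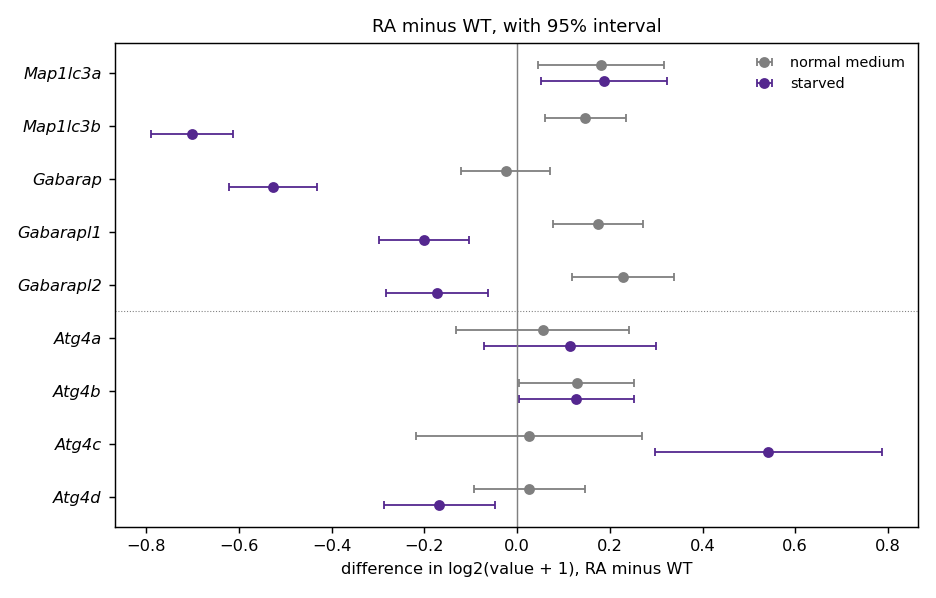
Difference in log2(value + 1) between RA and WT cells for each of the 9 members, in normal medium (grey) and under starvation (purple), with 95% intervals from limma. Map1lc3b and Gabarap lie at -0.70 and -0.53 under starvation and at 0.15 and -0.02 in normal medium, and Atg4c lies at 0.54 under starvation.

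Levels of different genes were compared per kilobase of all annotated exons joined, which are 1181 bases for Map1lc3a, 7517 for Map1lc3b, 1844 for Gabarap, 2013 for Gabarapl1 and 2325 for Gabarapl2. Gabarap was the most abundant ATG8 message on this scale, with 44.0% of the summed ATG8 level in WT normal, 46.7% in WT starved, 40.4% in RA normal and 41.3% in RA starved (means of 2). Map1lc3b took between 8.85% (WT normal) and 11.4% (WT starved). Since the annotated exons of Map1lc3b are far longer than its longest coding transcript of 2633 bases, its share was 17.9% and 22.5% in those groups when levels were divided by the longest coding transcript. Its place moved from the fifth in WT normal to the second. Gabarap was the first on both scales.

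Some changes of makeup were seen on both scales. The share of Gabarapl2 was 15.6% in normal and 11% in starved WT samples, and 17.1% and 12.4% in RA samples, on the scale of joined exons. On that of the coding transcript it was 15.3% and 10.5% in WT, and 16.7% and 12.3% in RA. Gabarapl1 took 20.4% in RA normal and 24.1% in RA starved, beside 19.3% and 21.8% in WT. Map1lc3a took 12.3% and 9.08% in WT and 13.0% and 13.2% in RA. In these shares on joined exons the 2 samples of a group had an SD of at most 0.951 percentage points, and no test was made. The summed ATG8 level per kilobase of joined exons was 157 in WT normal, 265 in WT starved, 168 in RA normal and 208 in RA starved.

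**Figure D5:**
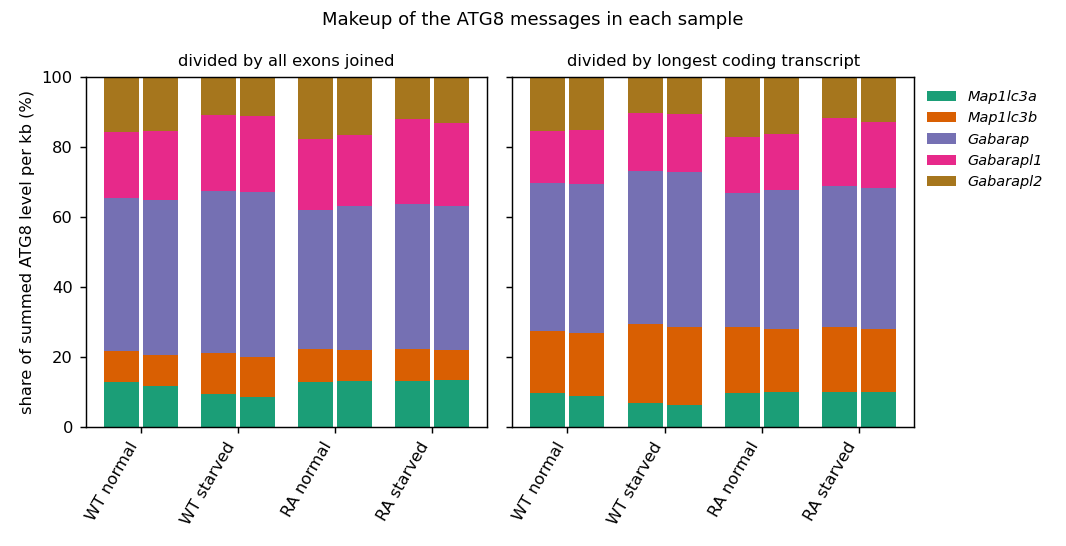
Share of each ATG8 gene, in percent of the summed ATG8 level per kilobase, in each of the 8 samples (2 bars a group), with levels divided by all exons joined (left) or by the longest coding transcript (right). Gabarap takes the largest share in all samples, the share of Gabarapl2 is smaller in starved samples, and that of Map1lc3b depends on the length used.

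Among the ATG4 genes, Atg4d took 33.7%, 40.7%, 32.8% and 34.3% of the summed level per kilobase of joined exons in WT normal, WT starved, RA normal and RA starved. Atg4b took 28.3%, 26.1%, 29.7% and 27.1% in the same order. Divided by the longest coding transcript, Atg4b was ahead, with 39.8%, 36.9%, 41.4% and 38.4%, and Atg4d had 29.2%, 35.4%, 28.2% and 29.9%. Atg4c was the least abundant on both scales, at 10% to 14.6% and at 7.55% to 11%. The summed ATG4 level per kilobase of joined exons was 14.8, 17.5, 15.5 and 18.4, so it was below the summed ATG8 level in every group.

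Some members lie beside or over other genes. Gabarapl1 shares 570 exon bases with 1700101I11Rik on the opposite strand, which had mean values of 11, 20.3, 11.7 and 16.7 in WT normal, WT starved, RA normal and RA starved. Map1lc3b shares 58 exon bases with Zcchc14 on the opposite strand, and lies within the span of Gm20388 on the same strand with no shared exon base. Gm20388 had mean values of 5590, 7678, 5700 and 6747 in the same order, far above those of Map1lc3b, and its part in the values of Map1lc3b was not tested. How the counting divided such reads is not given in the sources used here. Positions in GRCm38 were chr8:121590361-121598760 for Map1lc3b, chr11:69991143-69994951 for Gabarap and chr6:129533160-129542346 for Gabarapl1.

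The profiles of the members over the 8 samples were compared by the Euclidean distance between centred log2 values, as a description. Map1lc3b and Gabarap were 0.30 apart, Gabarap and Gabarapl1 0.436, and Map1lc3b and Gabarapl1 0.505. Map1lc3a was 1.05 from Map1lc3b and 0.315 from Atg4a, and Atg4a and Atg4b were the closest pair of members at 0.169. Among 10497 other genes with a mean value of at least 10, the nearest to Map1lc3b were Nme6 (0.0943), Impdh2 (0.119) and Laptm4b (0.128). The nearest to Gabarap were Fkbp2 (0.0717), Erp44 (0.0807) and Uso1 (0.0814), and to Gabarapl1 they were Usp30 (0.10), Aftph (0.115) and Rpl17 (0.118).

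For the other members the nearest gene was Nsrp1 for Gabarapl2 (0.0962), Nfkb2 for Map1lc3a (0.114), Rbbp8 for Atg4a (0.0690), Mrps35 for Atg4b (0.101), Surf2 for Atg4d (0.0711) and Dguok for Atg4c (0.222). All points of these profiles share the same 8 libraries.

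The genes that attach ATG8 to lipid were examined next. Atg7 is the activating enzyme, Atg3 is the conjugating enzyme of ATG8, and Atg10 is that of Atg12. Atg12, Atg5 and Atg16l1 form the complex that directs ATG8 to the membrane, with Atg16l2 as a relative of Atg16l1. Of these 7 genes, limma called 6 in WT cells upon starvation and 5 in RA cells, near the shares over all genes of 78.6% and 68.7%. In WT cells 5 were higher and Atg16l2 was lower, and in RA cells all 5 were higher. Of all genes, 39.3% were called higher in WT cells and 35% in RA cells. Atg12 values were 34.1 and 34.9 in WT normal, 80.4 and 86.9 in WT starved, 38.9 and 43.6 in RA normal, and 72.1 and 75.1 in RA starved. It rose by 1.25 ± 0.06 in WT (limma adjusted p = 1.99e-12) and by 0.82 ± 0.06 in RA (adjusted p = 1.20e-09), and the interaction was -0.43 ± 0.08 (adjusted p = 3.09e-04).

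Atg3 rose by 0.82 ± 0.05 in WT and by 0.66 ± 0.05 in RA, and its interaction of -0.16 missed the threshold (limma adjusted p = 0.0555). Atg16l2 had mean values of 14.8 in WT normal, 8.90 in WT starved, 16 in RA normal and 16.1 in RA starved, and its interaction was 0.68 ± 0.12 (adjusted p = 1.23e-04). Atg16l1 had an interaction of -0.24 ± 0.08 (adjusted p = 0.0223), which was no longer called with no filter (adjusted p = 0.0605), total reads (-0.173, adjusted p = 0.103) or no trend (adjusted p = 0.0625), nor without WT normal replicate 2, WT starved replicate 1, RA normal replicate 2 or RA starved replicate 2 (adjusted p from 0.0597 to 0.142). Atg5 was called in neither line (0.07 in WT, adjusted p = 0.314, and -0.11 in RA, adjusted p = 0.135). In all, 3 of 7 were called in the interaction (50.6% of all genes), 1 in normal medium (9.63%) and 5 under starvation between the lines (62.9%).

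Upstream of conjugation, 18 of 19 listed genes of initiation, nucleation and membrane supply were tested, and Atg9b did not pass the filter. Limma called 16 in WT cells upon starvation (15 higher) and 16 in RA cells (14 higher), beside 78.6% (39.3% higher) and 68.7% (35% higher) of all genes. Between the lines it called 0 in normal medium, beside 9.63% of all genes. It called 13 under starvation (12 lower in RA) and 12 in the interaction (11 below 0), beside 62.9% (32.1% lower) and 50.6% (26.1% below 0) of all genes. In normal medium, 6 of the 18 were at an unadjusted p under 0.05 by limma, and edgeR and DESeq2 also called 0. With scaling to total reads 2 were called, and with the replicate number added to the fit 1 was called. Ulk1, the kinase that starts autophagy, had mean values of 33.5, 72.1, 32.8 and 40.1 in WT normal, WT starved, RA normal and RA starved, with an interaction of -0.80 ± 0.08 (limma adjusted p = 2.04e-07). Ulk1, Atg14 and Uvrag are on lists that the study chose on these samples, so their direction is not independent evidence. The study also gives PCR primers for Atg2a, Atg9a and Atg13, so these may have been chosen on these samples as well. Becn1, a subunit of the lipid kinase complex, had an interaction of -0.15 ± 0.06 (adjusted p = 0.0370), a call that was lost with total reads (-0.0768, adjusted p = 0.291), quantile normalization (adjusted p = 0.136), eBayes without the trend (adjusted p = 0.0973), edgeR (adjusted p = 0.0919) and DESeq2 (adjusted p = 0.0661). It was also lost without any 1 of the samples other than RA normal replicate 2 (adjusted p from 0.0527 to 0.124).

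Proteins that bind ATG8 were listed as 15 genes, of which limma called 15 in WT cells upon starvation (12 higher) and 14 in RA cells (12 higher). Of all genes, 78.6% (39.3% higher) and 68.7% (35% higher) were called. Between the lines it called 4 in normal medium (all higher in RA), beside 9.63% of all genes (6.68% higher). It called 13 under starvation (6 higher and 7 lower in RA), beside 62.9% (30.8% higher and 32.1% lower). In the interaction it called 9 (3 above and 6 below 0), beside 50.6% (24.5% above and 26.1% below 0). Sqstm1, the cargo receptor p62, had values of 184 and 184 in WT normal, 727 and 752 in WT starved, 208 and 215 in RA normal, and 987 and 984 in RA starved. Its interaction was 0.21 ± 0.05 (limma adjusted p = 0.00246), opposite in sign to that of Map1lc3b. Nbr1, a related receptor, had mean values of 64.4, 142, 67.0 and 98.5 in the same order, with an interaction of -0.58 ± 0.06 (adjusted p = 2.88e-07). Nbr1 and Bnip3 are also on lists that the study chose on these samples, so their direction is not independent evidence.

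RefSeq promoter windows of GRCm38.p6, from 250 bases before to 50 bases after the start, were present for 8 of 9 members, with 10 windows in all. The letters GTAAACA, a core that FOXO factors bind, were searched on both strands and were in 0 of these 10 windows and in 3.65% of all 32851 windows. CACGTG, the E-box, was in 0 of 10 and in 7.15% of all windows. TCACGTGA, the core of the CLEAR element, contains the E-box and was in 0 of 10 and in 0.974% of all windows. These letters were thus not in these windows, but other forms of the motifs were not searched, and nothing beyond the windows was. The FOXO response elements of Map1lc3b that the study assayed lie further upstream.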

How the data were processed

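Polyadenylated RNA of 8 samples was made into libraries with a kit that does not mark strand and sequenced as read pairs. Per the labels and the submitters' processing notes, the authors mapped reads with TopHat2 2.0.9 to mm9 and used bedtools and edgeR, and the annotation and the strand setting of the counting are not given in the sources used here. The deposited values are a signal, read counts divided by a library size scaled by the authors (CPM of a scaled library), where plain CPM had been planned for. In every sample 100% of values were whole reads within a tolerance of 0.02, and 78.2% to 80.5% of low counts were even. Read totals and the floor of 3 reads cover counting error only. Columns marked minus and plus were read as normal and starved medium, after the way the study marks its conditions.

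A gene was tested if 2 or more samples had a value of 1 or higher, on log2(value + 1) with limma 3.58.1 (R 4.3.3), a model of 4 group means fitted to the 8 samples together, eBayes with trend, and 2-sided tests adjusted by Benjamini and Hochberg (BH) over 16232 genes in each of 5 contrasts, with calls at an adjusted p under 0.05. Fold changes on this scale understate those of low genes. The members, the gene lists and the alternatives were chosen with earlier results of these data known. Named genes were the members, the listed autophagy genes, Ruvbl1 and the 3 genes nearest to each member, and Kri1, 1700101I11Rik, Zcchc14 and Gm20388, which overlap members, were named after their values were seen, as were the pseudogenes. Alternatives changed the pseudocount (0.1), the filter, the scaling, the fit, the tool (edgeR 4.0.16 and DESeq2 1.42.0 on whole reads), the threshold (1e-05) and the samples. The tests were first tried on simulated data. Exon lengths and sequences came from GENCODE M21 and RefSeq on GRCm38, which is not the build of the files, so no position was taken from the files. Replicates of a group differed by more than counting noise. The chi-square per degree of freedom was 3.33 in WT normal, 5.6 in WT starved, 6.0 in RA normal and 14.7 in RA starved. It was 1.66 to 7.32 if both mates of a pair were counted. The fit shared the spread of a gene over the 4 groups, so p-values of contrasts with RA starved may be too small.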

Additional observations from a re-analysis of the deposited data

Results flagged for a closer look

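Here the members, the conjugation genes, Ulk1, Becn1, Nbr1 and Sqstm1 were looked at, and the other listed autophagy genes were left out. Each of the 4 groups had 2 samples. In that set of genes, limma's interaction test with BH adjustment called 12, whose response to starvation differed between WT and RA cells. Among the members these were Map1lc3b (-0.85 on the log2 scale, RA response less WT response), Gabarap (-0.50), Gabarapl2 (-0.40), Gabarapl1 (-0.38) and Atg4c (0.52). The response of Gabarapl2 changed sign, with a rise in WT and a fall in RA that was not called under some of the alternatives named above. That of Atg4c was below 0 in WT, where it was not called, and above 0 in RA. Among the conjugation genes they were Atg12 (-0.43), Atg16l1 (-0.24) and Atg16l2 (0.68). The rest were Ulk1 (-0.80), Nbr1 (-0.58), Becn1 (-0.15) and Sqstm1 (0.21). Outside this set, Atg14 (-1.19), Bnip3 (-0.82) and Uvrag (-0.53), named above, were also called in the interaction. Of the 18 upstream genes 12 were called (11 below 0), and of the 15 ATG8-binding genes 9 (3 above and 6 below 0). Map1lc3b, Gabarap, Gabarapl1, Ulk1, Nbr1, Atg14, Bnip3 and Uvrag are on lists that the study chose on these samples, so their direction is not independent evidence. The calls of Atg4c, Atg16l1 and Becn1 were lost under several alternatives given above, and for Becn1 with edgeR (adjusted p = 0.0919) and DESeq2 (adjusted p = 0.0661) as well. As 50.6% of all genes tested were called in this contrast, such a call is common in these data. No explanation was tested.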

How the results depend on the processing

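The counts of members called stayed within 1.5 times the values given above in 82 of 94 repeats with 1 choice changed. In normal medium the count was 0 with no filter on low values (5 at an unadjusted p under 0.05 by limma), 0 with eBayes without the trend (4 unadjusted), 1 with scaling to total reads, and 0 to 3 without 1 sample each. Leaving out 1 sample gave 4 to 8 members between the lines under starvation, 6 to 7 for starvation in WT, 6 to 8 in RA and 4 to 5 in the interaction. For starvation in RA the count was 5 with no filter. At an adjusted p under 1e-05 it was 0 in normal medium and 2 each between the lines under starvation, for starvation in RA and in the interaction. Over all genes the count in normal medium was 1563, but 650 with no filter, 590 without the trend, and 559, 830 and 939 without WT normal replicate 1, WT normal replicate 2 and RA normal replicate 2. The causes of these shifts were not tested.

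Labels give the groups the same replicate numbers without saying that a number marks a shared culture or day. Correlations of the deviations of same-numbered samples lay between -0.00764 and 0.157 over the pairs of groups. Such low correlations cannot exclude a shared culture or day, so whether a number marks a pair is not known. With the replicate block, 3 members were called in normal medium, 7 under starvation, 6 for starvation in WT, 8 in RA and 6 in the interaction, where Atg4d was added (-0.194, adjusted p = 0.0407, limma). Among the other autophagy genes the block added Atg3 to the interaction (-0.159, adjusted p = 0.0475, limma).

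Of the differences of members, 755 stayed the same, 69 lost a call, 12 gained one and 20 changed sign. Staying the same means keeping the direction and the side of the threshold. For the sums of Atg4d and Gabarapl2 with related rows, which had no test, it means a value near the main one. Every sign change, of members and of the other autophagy genes, was in a difference that was not called. In normal medium, scaling to total reads gave -0.016 for Atg4c, -0.0206 for Atg4d and -0.0409 for Atg3, and Atg3 was at -0.0121 with quantile normalization, -0.0025 with edgeR and -0.00977 with DESeq2. Quantile normalization gave -0.039 for Atg4a and -0.125 for Atg10 between the lines under starvation, and -0.0422 for Map1lc3a, -0.0799 for Atg4a and -0.0514 for Atg10 in the interaction. Median-ratio scaling gave -0.00729 for Map1lc3a in the interaction. The interaction of Atg4b was 0.0694 with total reads, 0.0301 with edgeR and 0.00107 with DESeq2, and starvation in WT gave -0.000286 for Atg5 with total reads.

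Leaving out 1 sample each gave ranges across 0 in normal medium for Gabarap (-0.0816 to 0.0319), Atg4c (-0.0519 to 0.103), Atg4d (-0.0535 to 0.106), Atg3 (-0.0348 to 0.0471) and Ulk1 (-0.0935 to 0.0303). The same was so for Atg10 between the lines under starvation (-0.0733 to 0.198), Atg16l2 for starvation in RA (-0.0402 to 0.0525), and in the interaction for Map1lc3a (-0.0613 to 0.0739), Atg4b (-0.0684 to 0.0677) and Atg10 (-0.00357 to 0.267). Shares of a family moved with the length used in 103 of 108 repeats. With 2 samples a group, small differences stay within the intervals given.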
